A study of Mus musculus with 4 samples.

Results

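The 8 genes Wfs1, Man1a, Mpped1, Fibcd1, Spink8, Doc2b, Tyro3 and Ccn3 are used as markers of pyramidal neurons of hippocampal field CA1. These were examined in mouse pups labelled as knockout or control for Zbtb20. They were selected by name, as every probe set whose single gene symbol in the platform annotation was one of the 8. This gave 12 of the 45037 probe sets of the array and 8 of 18193 named genes. Wfs1, Mpped1, Fibcd1 and Spink8 had 1 probe set each, and Man1a, Doc2b, Tyro3 and Ccn3 had 2 each. Hippocampi were dissected at postnatal day 2 and their total RNA was hybridised to 4 Affymetrix arrays. Of these, 2 were labelled wild type (control) and 2 were labelled ZBTB20 knockout, with replicate numbers 1 and 2 in each group, and the series text calls the controls littermates. Strain, sex, the form of the mutant allele and the number of pups behind an array are not stated in the labels, and the spread between arrays may be partly technical.

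The hippocampus proper consists of fields CA1, CA2 and CA3, beside the dentate gyrus, and passes through the subiculum into the neighbouring cortex. CA1 pyramidal neurons receive the output of CA3 and project to the subiculum and cortex. Zbtb20 encodes a BTB zinc finger transcription factor of developing hippocampal pyramidal neurons, and the comparison asked which genes depend on it in hippocampal development. The members have no common biochemical function. They share a regional use, in that their transcripts are used to tell CA1 from its neighbours. Whether they are confined to CA1 at postnatal day 2 cannot be seen in RNA of whole hippocampi. In RNA of whole hippocampi, fewer CA1 cells and less RNA per cell cannot be told apart.

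The arrays came on a pair of scales. With replicate number 1 the trimmed mean signal was 498 (control) and 497 (knockout), with number 2 it was 158 and 156, so knockout was set against control within each replicate number. These comparisons are called pair 1 and pair 2, each is 1 array against 1 array, and neither carries a p-value. Differences are knockout minus control of log2(signal + 32.56). Pair 1 varied more than pair 2: the standard deviation of the difference over all probe sets was 0.58 in pair 1 and 0.20 in pair 2. Spread also differed within arrays. The standard deviation of log2(signal + 32.56) over probe sets was 2.03 (control) and 2.08 (knockout) with number 1. With number 2 it was 1.28 and 1.25. Sizes of difference therefore cannot be compared directly between the pairs. The replicate 1 arrays also carried liver transcripts. Of 10 liver genes listed, 9 were measured, and their signals summed to 58399 in control and 19661 in knockout with replicate number 1, but to 345 and 351 with number 2. In pair 1 all 9 read lower in knockout, with a median difference of -2.07. The part of liver RNA in any pair 1 difference was not tested. Of the 9 Zbtb20 probe sets, 3 were lower in the knockout array in pair 1, 2 in pair 2 and 0 in both, which goes against the label as far as these probe sets lie in the deleted part of the gene, and where they lie is not stated in the labels. The Zbtb20 signal thus did not settle the genotype, and "knockout" below means the array labelled knockout, in every direction given. Genes of pyramidal neurons in general (Neurod6, Neurod2, Slc17a7, Camk2a, Nrgn, Zbtb18) lay above the array median on all arrays in 5 of 6 cases. Of all 18193 genes, 9558 did.

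Over all 4 arrays no CA1 marker was called different between knockout and control. With limma, 0 of the 12 member probe sets passed an adjusted p of 0.05 (limma, smallest adjusted p = 1), where 0% of all 45037 probe sets passed. With the replicate number as a block, 0 of 12 passed as well (smallest adjusted p = 0.999999), again beside 0% of all probe sets. At an unadjusted p under 0.05 limma found 0 member probe sets in either fit, and 25 and 366 of all probe sets. The fits differ in precision: without the block the scale of the arrays enters the error, and the standard errors of the 12 probe sets ran from 0.62 to 1.82, against 0.16 to 0.33 with it. Intervals given below are 95% intervals of the blocked fit, which rests on 1 residual degree of freedom and a prior of 6.08. That fit gives both pairs equal weight and assumes an equal error in them, although pair 1 varied more than pair 2. Its mean differences and intervals carry this limit.

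Within pairs the median differences of the members were small. Each member was represented by its probe set with the highest mean. On this basis the median difference of the 8 members was 0.16 in pair 1 and 0.10 in pair 2, against -0.04 and 0.01 over all 18193 genes. The pair 1 median was 0.07 without Spink8, which a filter on dim probe sets removed, 0.05 without Spink8 and Fibcd1, and 0.02 when each gene was the mean of its probe sets. With Spink8 and Fibcd1 left out, the pair 2 median was 0.16. Of the 8 members, 4 were higher in the knockout array in both pairs (Mpped1, Fibcd1, Spink8 and Tyro3), where 22.2% of all genes were. A further 4 had opposite signs in the pairs, where 53% of all genes did, and 0 were lower in both, where 24.7% of all genes were. On signal + 32.56, no member probe set was over 2-fold apart in either pair, where 10.1% of all probe sets were in pair 1 and 0.331% in pair 2. Single members still lay far out in pair 2, at their probe set with the highest mean. The differences of Ccn3 (0.62), Mpped1 (0.44) and Man1a (-0.33) were above those of 99.4%, 98.6% and 4.55% of all probe sets. The other members lay between 24.4% (Doc2b) and 89.1% (Tyro3).

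**Figure D1:**
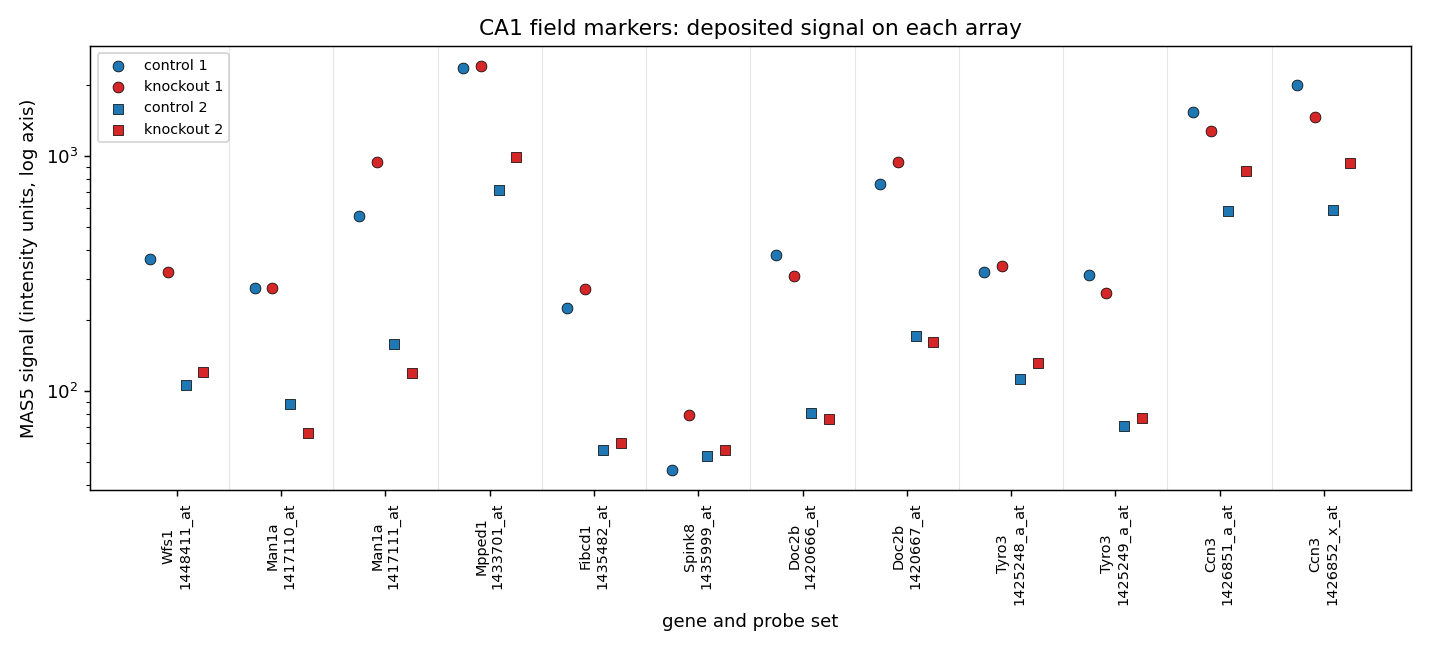
Deposited MAS5 signal (log axis) of the 12 probe sets of the CA1 markers, 1 point per array. Blue points are control and red points knockout arrays, circles are replicate 1 and squares replicate 2. All probe sets but that of Spink8 were brighter on both replicate 1 arrays than on both replicate 2 arrays, which is the difference in scale.

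Because the scales differ, the place of each probe set on its own array was also recorded, as its rank by signal among the 45037 probe sets (rank 1 is the brightest) and as the percentage of probe sets that were dimmer. Of the 12 probe sets, 8 lay above the array median on all 4 arrays. At their leading probe set 6 of the 8 members did, where 9558 of all 18193 genes did. The 2 other members were Fibcd1, below the median on both replicate 2 arrays, and Spink8, below it on all 4. A place on the array depends on the probes as well as on the transcript, so these places describe each probe set across arrays and do not order the genes by abundance.

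The members of the secretory pathway were Wfs1 and Man1a. Wfs1 encodes wolframin, a membrane protein of the endoplasmic reticulum, and is a classical marker of CA1. Its probe set 1448411_at read 365 in control and 322 in knockout in pair 1, then 106 and 120 in pair 2. It thus lay lower in the knockout array in pair 1 and higher in pair 2, by -0.16 and 0.14. The groups overlapped in signal, but the difference in scale makes such an overlap likely for any probe set. The ranks were 14466 and 15268 in pair 1 and 16972 and 15629 in pair 2. On each array 62.3% to 67.9% of probe sets were dimmer, a range that held both groups. The mean difference was -0.01 with an interval from -0.53 to 0.50 in limma's blocked fit.

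The RefSeq promoter table held windows for 5 of the 8 members (Wfs1, Man1a, Mpped1, Fibcd1 and Tyro3), with 2 start sites for Mpped1. Only the Wfs1 window lay outside the annotated span of every gene, and it is shown for that reason. Whether this window is transcribed was not tested. It covers the 250 bases before the start on the minus strand of chr5:36988983-36989232 (GRCm38.p6), read 5′ to 3′, with each CG dinucleotide in capitals:

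Wfs1: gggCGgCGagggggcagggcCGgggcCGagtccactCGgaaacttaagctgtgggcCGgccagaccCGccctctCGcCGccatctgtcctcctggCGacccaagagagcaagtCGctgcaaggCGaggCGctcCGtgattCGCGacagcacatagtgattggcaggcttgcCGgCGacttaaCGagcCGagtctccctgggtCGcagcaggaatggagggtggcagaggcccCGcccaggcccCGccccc

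The motif searched was CG, which reads the same on both strands and occurs at least once in 92.1% of 32851 such windows. The Wfs1 window held 23, against a median of 6 over all windows, and 86.7% of windows held fewer. The windows of Man1a (31), Fibcd1 (34), Tyro3 (24) and the upstream start of Mpped1 (47) also held more than the median, while the downstream start of Mpped1 held 2. Which start the Mpped1 probe set reads is not stated in the labels. These counts describe the sequence, and no array value bears on them.

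Man1a encodes a Golgi mannosidase that trims N-linked glycans. Its probe set 1417111_at read 555 in control and 941 in knockout in pair 1, then 159 and 119 in pair 2. The knockout array was the higher in pair 1 and the lower in pair 2. The difference of 0.73 in pair 1 was the widest of any member, and that of pair 2 was -0.33. It ranked 11234 in control and 7555 in knockout in pair 1, then 12085 and 15746 in pair 2. The second probe set, 1417110_at, gave 273 and 274 in pair 1 and 88.1 and 66.4 in pair 2, with differences of 0.00236 and -0.29. The probe sets therefore were alike in pair 2 and not in pair 1, where only 1417111_at was apart. In limma's blocked fit their mean differences were 0.20 (interval from -0.43 to 0.82) and -0.14 (-0.74 to 0.45). Folds were counted on signal + 32.56, with a 1.5-fold limit chosen with the values known. On that scale 1417111_at was 1 member probe set over 1.5-fold higher in pair 1, where 10.4% of all probe sets were, and 0 were over 1.5-fold lower, where 15.3% of all were. By the plain ratio of signals, knockout over control, Man1a 1417111_at was at 1.70 and Spink8 at 1.71 in pair 1. With quantile normalization the pair 2 differences of Man1a became -0.55 for both 1417111_at and 1417110_at.

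The cytoplasmic members were Mpped1 and Doc2b. Mpped1 encodes a metallophosphoesterase domain protein of developing forebrain. Its probe set 1433701_at read 2357 in control and 2412 in knockout in pair 1, then 719 and 988 in pair 2. The pair 1 arrays were nearly level (0.03, or 0.00752 with quantile normalization), and the knockout array was the higher in pair 2 (0.44). Its rank went from 2989 on the control to 2972 on the knockout array in pair 1, and from 2574 to 1592 in pair 2. Between 93.4% and 96.5% of probe sets were dimmer on each array. The difference of 0.44 was above that of 98.6% of all probe sets in pair 2. Mpped1 also had the smallest p of any member in limma's blocked fit, at 0.184 before adjustment, with a mean difference of 0.24 and an interval from -0.14 to 0.62.

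Doc2b encodes a calcium-binding C2 domain protein that acts in vesicle release. Its probe set 1420667_at read 762 in control and 944 in knockout in pair 1, then 171 and 161 in pair 2. The knockout array was higher in pair 1 (0.30) and lower in pair 2 (-0.07, or -0.13 with quantile normalization). The second probe set, 1420666_at, gave 380 and 309.5 in pair 1 and 80.9 and 76.4 in pair 2, and was lower in both (-0.27 and -0.06, the latter -0.15 with quantile normalization). The probe sets of Doc2b thus had opposite signs in pair 1, and no direction can be given for the gene there. In limma's blocked fit the mean differences were 0.11 (interval from -0.30 to 0.53) for 1420667_at and -0.17 (-0.71 to 0.38) for 1420666_at.

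The cell surface members were Tyro3 and Fibcd1. Tyro3 encodes a receptor tyrosine kinase whose ligands are Gas6 and protein S. Its probe set 1425248_a_at read 322 in control and 341 in knockout in pair 1, then 112 and 132 in pair 2. The knockout array was higher in both pairs, by 0.07 and 0.19. On the control arrays 65.7% and 64.0% of probe sets were dimmer, and on the knockout arrays 67.1% and 68.1%, so that by position both knockout arrays lay above both control arrays. The second probe set, 1425249_a_at, did not share this: its signals were 311 and 262 in pair 1 and 71.3 and 76.7 in pair 2, with differences of -0.22 and 0.07. In limma's blocked fit the mean differences were 0.13 (interval from -0.37 to 0.63) and -0.07 (-0.66 to 0.52).

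Fibcd1 encodes a transmembrane receptor that binds acetylated sugars such as chitin. Its probe set 1435482_at read 225 in control and 272 in knockout in pair 1, then 56.3 and 60.3 in pair 2. The knockout array was higher in both pairs, by 0.24 and 0.06 (the latter 0.10 without the pseudocount). The replicate 2 signals were below the array medians of 73.8 and 75.8, and the position overlapped between groups, with 59.0% and 39.2% of probe sets dimmer on the control and 63.1% and 41.0% on the knockout arrays. The mean difference was 0.15 with an interval from -0.48 to 0.79 in limma's blocked fit.

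The secreted members were Spink8 and Ccn3. Spink8 encodes a Kazal-type serine protease inhibitor. Its probe set 1435999_at read 46.2 in control and 78.8 in knockout in pair 1, then 53.1 and 56.2 in pair 2. The knockout array was higher in both pairs, by 0.50 and 0.05, and without the pseudocount by 0.77 and 0.08. It was the dimmest of the members' probe sets on its own scale, with 26.6% and 36.7% of probe sets dimmer on the control and 40.7% and 38.0% on the knockout arrays. Every one of these signals lay below the median of its array, where a fixed change in signal makes a wide log2 difference. Spink8 did not pass a filter at the 40th percentile of mean signal, which the other 11 member probe sets passed. Its mean difference was 0.28 with an interval from -0.50 to 1.05 in limma's blocked fit. By position, Spink8 and Tyro3 were 2 of 8 members with both knockout arrays above both control arrays, where 5.46% of all genes had this order, and 0 of 8 had the reverse order, where 6.37% of all genes did.

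Ccn3, formerly Nov, encodes a secreted matricellular protein of the CCN family. Its probe set 1426852_x_at read 1996 in control and 1463 in knockout in pair 1, then 591.5 and 929 in pair 2. The knockout array was lower in pair 1 and higher in pair 2, by -0.44 and 0.62. The second probe set, 1426851_a_at, gave 1536 and 1272 in pair 1 and 585 and 863 in pair 2, with differences of -0.27 and 0.54, so both probe sets of Ccn3 had opposite signs in the pairs. The suffix of 1426852_x_at marks probes that may also bind other transcripts. The ranks of 1426852_x_at were 3612 in control and 5032 in knockout in pair 1, then 3216 and 1750 in pair 2. On signal + 32.56 this was the only member probe set over 1.5-fold higher in pair 2, where 0.662% of all probe sets were, and 0 were over 1.5-fold lower, where 1.07% of all were. In limma's blocked fit the mean differences were 0.09 (interval from -0.48 to 0.67) and, for 1426851_a_at, 0.14 (-0.35 to 0.62).

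**Figure D2:**
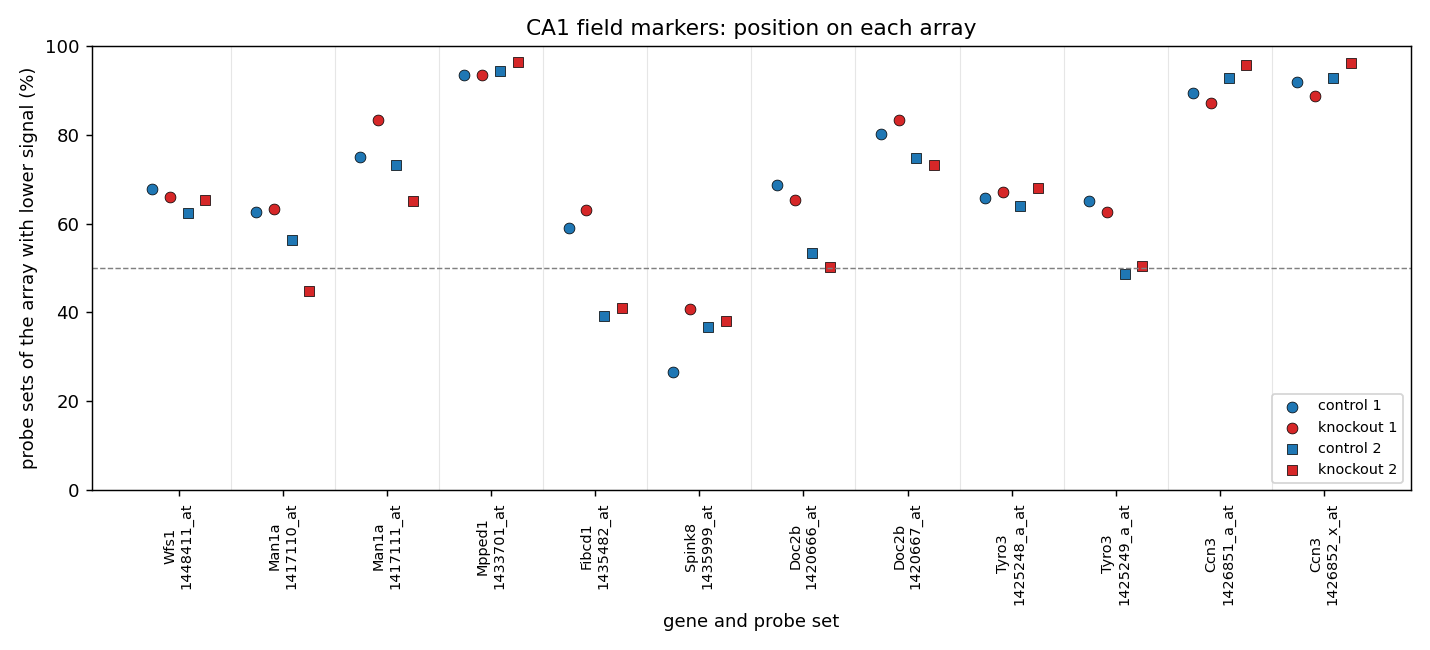
Position of the 12 CA1 marker probe sets on each array, as the percentage of the 45037 probe sets with lower signal, with the array median as a dashed line. Colours and symbols are as for the signals: blue control, red knockout, circles replicate 1, squares replicate 2. The positions of Spink8 and of 1425248_a_at of Tyro3 were higher on both knockout arrays than on both control arrays, and the other 10 probe sets overlapped.

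Among themselves, the members did not move as 1 group. In pair 1 they ran from -0.44 (Ccn3) to 0.73 (Man1a), and in pair 2 from -0.33 (Man1a) to 0.62 (Ccn3). The genes at the ends of the range in pair 1 were thus at the opposite ends in pair 2. Wfs1 had the signs of Ccn3 (lower, then higher), and Doc2b had those of Man1a (higher, then lower) at its leading probe set.

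**Figure D3:**
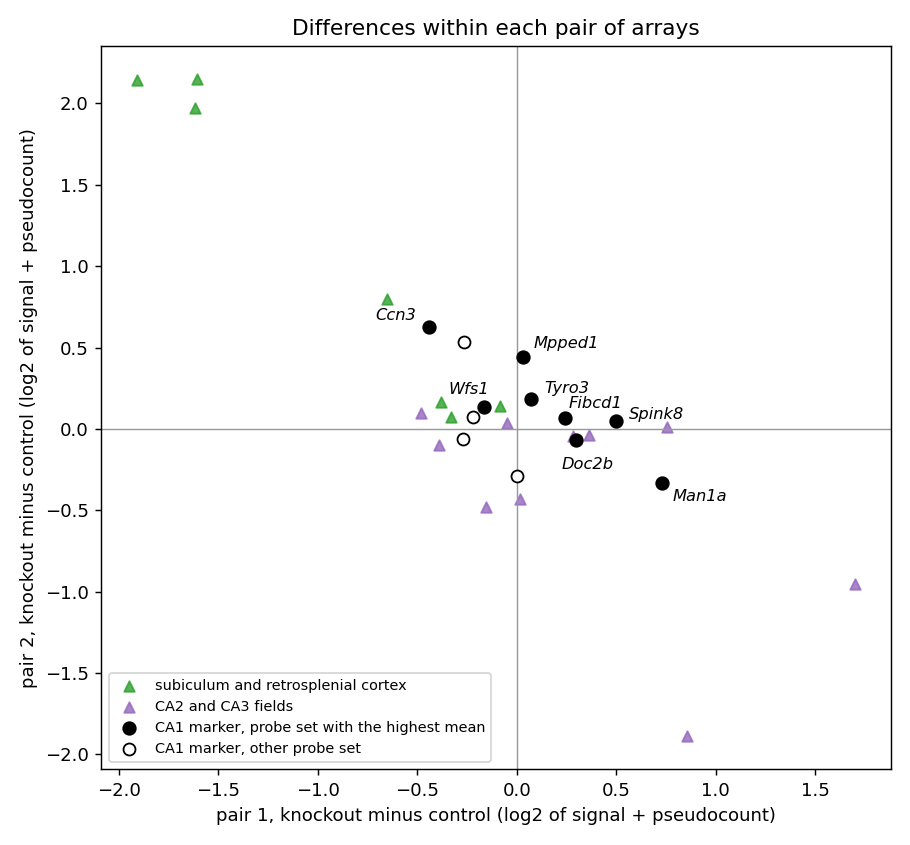
Difference between knockout and control arrays, as log2(signal + 32.56), in pair 1 (horizontal) and pair 2 (vertical), with 1 point per probe set. Filled circles are the 8 CA1 markers at their probe set with the highest mean, open circles their 4 other probe sets, and triangles genes of the subiculum and retrosplenial cortex (green) and of CA2 and CA3 (purple) at the probe set with the highest mean. The CA1 markers stayed within 1 log2 unit of 0 in both pairs, and all 7 green triangles lay lower in pair 1 and higher in pair 2.

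Other genes known from CA1 also had both signs. Of 4 listed, 3 were measured, and limma called 0 of them in either fit. Pou3f1, a POU domain transcription factor, was at 0.55 in pair 1 and 0.18 in pair 2. Calb1, which encodes the calcium buffer calbindin, was at -0.64 and 0.26, the signs of Ccn3. Ndst4, a heparan sulphate sulphotransferase, was at -0.08 and -0.12. The median of these 3 genes in pair 1 was -0.08, and quantile normalization turned it to 0.07.

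In CA2 and CA3 a few genes differed widely while the medians were near 0. The 10 genes ran from -0.48 to 1.70 in pair 1 and from -1.89 to 0.10 in pair 2, with medians of 0.15 and -0.07. Nectin3, an adhesion molecule, was at 1.70 and -0.96, and Pcp4, a calmodulin regulator, at 0.86 and -1.89, so these had the signs of Man1a. The other 8 genes lay between -0.48 (Iyd) and 0.76 (Amigo2) in pair 1 and between -0.48 (Bok) and 0.10 (Iyd) in pair 2, against -0.44 to 0.73 and -0.33 to 0.62 for the CA1 markers. For the subiculum and retrosplenial cortex the medians of the 7 genes were -0.65 and 0.80. Both medians were the values of Fn1. It read 3177 in control and 2013 in knockout in pair 1, then 192 and 357 in pair 2. The part of liver RNA in the Fn1 values was not tested. All 7 genes had the order lower, then higher, which 5343 of all 18193 genes had. Among the CA1 markers 2 of 8 had it, Ccn3 and Wfs1. The signals of the 7 genes summed to 36325 in control and 13548 in knockout in pair 1, and to 2615 and 9279 in pair 2. The largest share came from Nts, the neurotensin precursor, with 21361 and 7002 in pair 1 and 1314 and 5950 in pair 2. Over the 8 CA1 markers the sums were 6628 and 6774 in pair 1 and 1968 and 2566 in pair 2. The largest shares came from Mpped1 (2357 and 2412, then 719 and 988) and Ccn3 (1996 and 1463, then 591.5 and 929). Man1a (159 and 119) and Doc2b (171 and 161) read lower in knockout in pair 2, so the sums do not describe a shared rise. The part of RNA from the subiculum or neighbouring cortex in the Ccn3 and Wfs1 differences was not tested.

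Other lists set beside the members differed as follows. The 8 dentate gyrus genes had medians of 0.33 in pair 1 and -0.03 in pair 2, and the 6 genes of pyramidal neurons in general 0.37 and -0.29. Within the latter, 1 of 6 genes was higher in both pairs, 4 were higher, then lower, and 1 was lower, then higher. The 1 higher in both was Neurod6 (0.07 and 0.22), a transcription factor of all pyramidal fields, with the signs of Mpped1 and Tyro3. Camk2a (1.16 and -1.42), a postsynaptic kinase, was among the 4 with the signs of Man1a. The 6 GABAergic interneuron genes had medians of 0.27 and -0.80, the 6 genes of astrocytes and radial glia 0.04 and -0.30, and the 6 choroid plexus genes 0.65 and 0.46. The pair 2 median of the choroid plexus genes was 0.75 with quantile normalization, 0.74 without the pseudocount, 0.60 with 1 trimmed mean and 0.32 with a pseudocount at the 40th percentile. Limma called 0 genes of any of these lists with or without the block. In the choroid plexus list 5 of 6 genes were higher in both pairs, beside 4 of 8 among the CA1 markers and 22.2% of all genes. The part of these cells in the members' differences was not tested.

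**Figure D4:**
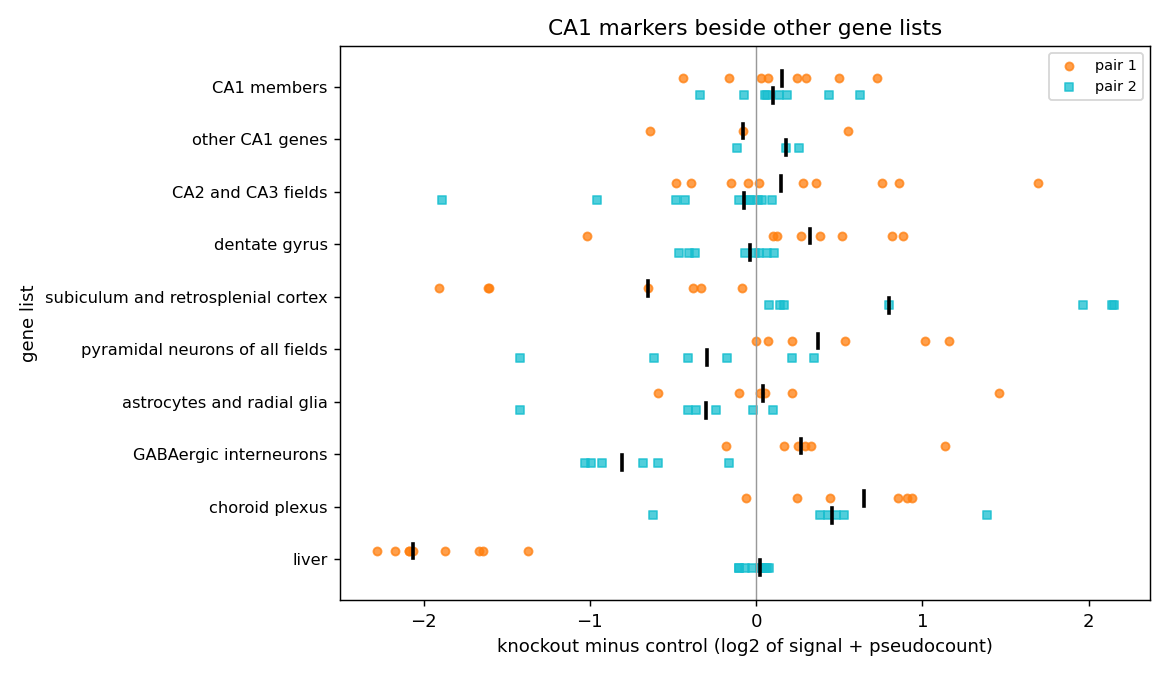
Difference between knockout and control arrays, as log2(signal + 32.56), for the CA1 markers and 9 other gene lists, with 1 point per gene at its probe set with the highest mean. Orange circles are pair 1, turquoise squares pair 2, and the black bar is the median of the list. The CA1 medians of 0.16 and 0.10 lay on the same side of 0, those of CA2 and CA3 (0.15 and -0.07) were about as near to 0, and those of the subiculum and retrosplenial cortex (-0.65 and 0.80) were on opposite sides.

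For each member the gene with the most similar values over the 4 arrays was found, by Euclidean distance between log2 values centred on their own mean. Each was compared with 12580 genes (12581 for Spink8), those of 18193 with a probe set above the 40th percentile of mean signal. The nearest genes were Zfp160 for Wfs1, Ube2ql1 for Man1a, Tbc1d23 for Mpped1, Zscan12 for Fibcd1, Eml5 for Spink8, Wdr46 for Doc2b, Jmjd1c for Tyro3 and Dpy19l1 for Ccn3. Distances ran from 0.01 (Wfs1) to 0.07 (Man1a). These profiles hold 4 values that share the difference in scale, and many genes lay close: within a distance of 0.25 there were, of these, 995 genes for Wfs1, 1098 for Fibcd1, 892 for Tyro3, 727 for Doc2b, 279 for Mpped1, 137 for Spink8, 45 for Man1a and 35 for Ccn3. Man1a and Ccn3, the members with the widest differences, had the fewest near neighbours, as a fixed distance holds fewer genes where differences are wide. Dpy19l1 was at -0.52 in pair 1 and 0.61 in pair 2, and Ube2ql1 at 0.69 and -0.24.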

How the data were processed

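The authors deposited MAS5 signal intensities on a linear scale, per the submitters' processing notes; version, scaling target and detection calls were not given in the sources used here. Probe sets were named from the platform annotation: 34945 had 1 gene symbol, 932 several and 9160 none. Signals were transformed as log2(signal + 32.56), the 20th percentile of all values, which understates changes of dim genes. All 45037 probe sets, unfiltered, were fitted with limma 3.58.1 in R 4.3.3 (lmFit, eBayes with trend, 4 arrays, no covariate), with Benjamini-Hochberg adjustment at 0.05. The script was checked on data with known answers. The replicate number as a block was an alternative. Labels do not say that it pairs animals, but it coincides with the scale of the values. The replicate 1 minus replicate 2 difference of the control arrays correlated with that of the knockout arrays at 0.842 over probe sets. Both of these differences hold the change in scale and spread, so the correlation cannot tell whether animals were paired. With 2 arrays a group, the number of arrays limits precision. Members, lists and tests were chosen with earlier results of these data known. Every member and probe set is named. From each other list up to 4 genes with the largest smaller-of-both-pairs difference could be named. Values of Neurod6, Iyd and Amigo2 were given beyond this, with those values known. Promoter windows came from RefSeq (GRCm38.p6), and array positions of probes were not used here.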

Additional observations from a re-analysis of the deposited data

How the results depend on the processing

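Limma called 0 probe sets overall and 0 of the 12 CA1 probe sets with every setting tried: quantile normalization, centring on the 75th percentile, 1 trimmed mean, a floor of 1 without pseudocount, a pseudocount at the 40th percentile, filters at the 40th and 60th percentiles, 1 value a gene, eBayes without trend or robust, the replicate block (0 and 0), the block with quantile normalization (added after the data were seen), and leaving out each array in turn (0 to 0). Only the runs named with the block used it. In runs with neither the block nor a rescaling of the arrays, the scale of the arrays stayed in the error. The 0 calls of those runs therefore add little. The 24 pair differences of the members kept their sign under the 5 scaling and pseudocount settings. Of these, 9 values (7 probe sets) changed in size by over 1.5 times under at least 1 of them. With quantile normalization the pair 2 difference of Man1a went from -0.29 to -0.55 (1417110_at) and from -0.33 to -0.55 (1417111_at), and with the floor of 1 the pair 1 difference of Spink8 went from 0.50 to 0.77. The median pair 1 difference of 0.16 moved to 0.074 and 0.053 with the filters at the 40th and 60th percentiles and to 0.023 when probe sets of 1 gene were averaged, and the median pair 2 difference of 0.10 moved to 0.16 with the filter at the 60th percentile. The filters keep 7 and 6 of the 8 members. Leaving out 1 array without the block sets arrays of different scale against each other, and the fitted differences of the members then ran from -1.14 to 1.54, with 11 of 12 negative without control replicate 2 or knockout replicate 1 and 12 of 12 positive without control replicate 1 or knockout replicate 2. Detection calls were not used here, so signal over background is unknown. Probe sets below the array median were Spink8 on all arrays, Fibcd1 on both replicate 2 arrays, 1417110_at of Man1a on the knockout and 1425249_a_at of Tyro3 on the control array of replicate 2.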
